A study of Mus musculus with 36 samples.

Results

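RNA of the old conditioned hippocampus was compared with RNA of the young conditioned hippocampus across all expressed genes. The members were taken from the labels: 3 RNA libraries of old mice (numbered 61, 63 and 65 in their titles) and 3 of young mice (73, 75 and 77), 6 of the 12 RNA libraries and of the 36 samples in all. All mice were C57BL/6J, an inbred laboratory strain, aged 15.5 months (old) or 2.5 months (young). Both groups had gone through the same 5 min session of fear conditioning with 3 shocks of 0.5 mA lasting 2 s each, and brains were frozen 30 min after training. Naive mice of the same 2 ages, with 3 RNA libraries each, gave the same age contrast without training and were used for comparison. The labels do not say whether the libraries of a group came from separate animals. The RNA p-values of the main fit reflect the scatter within all 4 groups of the 12 RNA libraries, naive ones included. That scatter may be technical.

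The hippocampus stores contextual memories, and its granule and pyramidal neurons switch on immediate early genes such as Fos and Arc within minutes of a learning experience. With age the rodent hippocampus is known for activated glia, raised complement, and a strong loss of newborn neurons in the dentate gyrus. Complement is a cascade of secreted proteins that tags material for removal. In the brain its first component, C1q, is made mainly by microglia, the resident phagocytes, which take up tagged synapses and debris.

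The 6 conditioned libraries held 9851985 to 13350561 counts, with a count for 17017 to 17362 genes. Markers of the labelled tissue were present in both groups, with Prox1, a dentate granule transcription factor, at 104 ± 16.5 CPM (gene counts scaled to a common library size, mean ± SD, n = 3) in old and 107 ± 15.3 CPM in young mice, and Neurod6, a pyramidal neuron factor, at 216 ± 18.8 and 214 ± 22.2 CPM. Some libraries stood apart. Markers of the choroid plexus, the ventricular epithelium that borders the hippocampus, summed to 1180 CPM in young library 73 and 3620 CPM in young library 75, against 242 CPM in young library 77 and 241 to 406 CPM in the old libraries. Old library 61 was lowest in nuclear-retained RNAs, with a mean log2 CPM of 7.92 over 9 genes against 8.37 to 8.70 in the other conditioned libraries. Xist reached at most 2 counts in any RNA library, and the Y-linked genes were measured in all of them.

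Few genes passed the test. Of 14405 genes tested, 5 rose in old conditioned mice (0.0347% of the genes tested) and 0 fell (0% of the genes tested) at an adjusted p under 0.05, from edgeR's quasi-likelihood test with Benjamini-Hochberg adjustment. The genes that rose were C4b, Pcdhb9, Pcdhga2, BC061194 and Pisd-ps1. Without adjustment, 897 genes with a higher and 1029 with a lower old mean had a p under 0.05. DESeq2, whose default filter on the mean count leaves genes below a limit it chooses without an adjusted p, called 69 in the upward and 37 in the downward direction. Of the 5 genes it called 1, Pisd-ps1, and gave the other 4, C4b among them, no adjusted p. Adjusting over every tested gene left 33 and 20 DESeq2 calls, with all 5 genes among them.

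C4b, which encodes complement component C4, rose 2.05-fold. Old libraries 61, 63 and 65 held 66.7, 64.7 and 59.8 CPM, and young libraries 73, 75 and 77 held 28.2, 35.9 and 28.9 CPM. The lowest old library was thus far above the highest young one. Group means were 63.7 ± 3.54 and 31.0 ± 4.27 CPM (SD, n = 3), a log2 difference of 1.04 with a standard error of 0.10 (edgeR adjusted p = 0.000411). C4b passed in each of the 19 alternatives that gave it an adjusted p, with log2 differences between 0.97 and 1.16. Its near-identical neighbour C4a was at 1.51 ± 0.87 CPM in old and 1.51 ± 0.31 CPM in young mice, and reads that fit both copies could have been split between them.

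Pcdhb9 and Pcdhga2 belong to the clustered protocadherins, cell adhesion proteins whose combinations give neurons individual surface identities. Pcdhb9 was at 24.7, 24.03 and 27.5 CPM in the old libraries and at 15.01, 13.41 and 15.08 CPM in the young ones (log2 difference 0.81, SE 0.10, edgeR adjusted p = 0.00202). Pcdhga2 was at 25.3, 22.1 and 22.2 CPM in the old and at 11.99, 14.9 and 11.7 CPM in the young libraries (log2 difference 0.85, SE 0.13, edgeR adjusted p = 0.0223). For both genes the 2 groups were well apart, and the old levels were within a few CPM of each other. Pcdhb9 lost its call in 1 of 19 alternatives, without old library 61 and young library 75 together (log2 differences 0.75 to 0.85, largest adjusted p = 0.122). Pcdhga2 lost it in 6 of 19, among them without old library 61, 63 or 65 and without young library 73 or 77 (log2 differences 0.78 to 0.97, largest adjusted p = 0.204).

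The other members of the family were described by cluster. Of 21 beta cluster genes tested, 18 had a positive difference and 9 were higher in every old library than in every young library, a separation that 11.3% of all tested genes showed in this direction and 11.8% in the other. The median difference of the beta cluster was 0.18 on the log2 scale in conditioned and 0.28 in naive mice, while the median of all tested genes was -0.007 in conditioned mice. Pcdhb3 was at 12.1 ± 0.39 CPM in old and 8.32 ± 1.16 CPM in young mice, and Pcdhb2 at 11.3 ± 0.39 and 7.83 ± 0.45 CPM, without passing (edgeR adjusted p = 0.195 and 0.215). Of 6 alpha cluster genes, 3 were positive, 0 were separated upwards and 1 downwards (median 0.01; -0.11 in naive mice). Of 7 gamma cluster genes, 2 were positive and Pcdhga2 was the separated one. Family members are similar in sequence, and the gamma genes share their last exons, so reads could have been assigned to the wrong member.

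BC061194, a gene known by its cDNA name, had the largest fold among the 5 and the lowest expression. It was at 4.24, 4.89 and 4.05 CPM in the old libraries and at 0.98, 1.33 and 1.92 CPM in the young ones, a log2 difference of 1.66 with an SE of 0.25 (edgeR adjusted p = 0.0223). Its call was lost in 7 of 19 alternatives (largest adjusted p = 0.407), among them without any of the old libraries and without young library 73 or 75. Pisd-ps1, a transcribed pseudogene of the phospholipid enzyme gene Pisd, was at 110.3, 109 and 133 CPM in the old libraries and 75.9, 48.8 and 68.3 CPM in the young ones (log2 difference 0.87, SE 0.14, edgeR adjusted p = 0.0251). Its call was lost in 7 of 20 alternatives (largest adjusted p = 0.163), among them without any of the old libraries and without young library 75 or 77. A second pseudogene, Pisd-ps2, was at 16.2 ± 1.73 and 9.89 ± 2.37 CPM and did not pass (edgeR adjusted p = 0.195), while Pisd itself was at 43.1 ± 1.41 and 38.5 ± 1.81 CPM. The 3 loci share sequence, and the sources used here do not say how reads that fit several of them were counted.

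**Figure D1:**
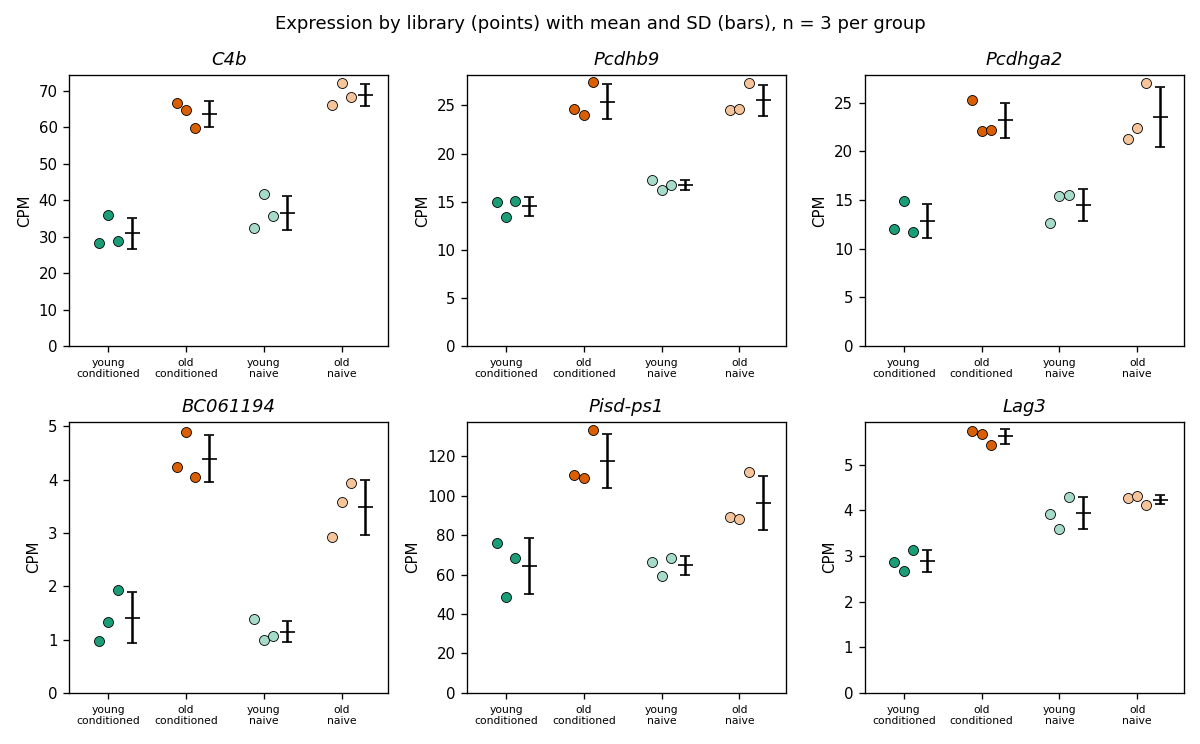
Expression in CPM (vertical axes, from 0) of the 5 genes that rose and of Lag3, by library, with the mean and SD beside each group of 3. For the 5 genes every old conditioned point lies above every young conditioned point; Lag3, which missed the threshold, is separated in conditioned mice with an old level of 5.62 ± 0.17 CPM and a young level of 2.89 ± 0.24 CPM.

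The same age contrast in naive mice used other libraries and gave differences of the same sign for all 5 genes. C4b differed by 0.91, Pcdhb9 by 0.61, Pcdhga2 by 0.69, BC061194 by 1.61 and Pisd-ps1 by 0.57 on the log2 scale. C4b, Pcdhb9 and BC061194 passed there too (edgeR adjusted p = 0.00208, 0.0308 and 0.0446). Pcdhga2 and Pisd-ps1 did not (edgeR adjusted p = 0.0691 and 0.193). In all, 8 genes passed in naive mice (0.0555% of the genes tested), 5 of them higher and 3 lower.

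The test of the difference between the 2 age contrasts called 0 genes (0% of the genes tested; smallest edgeR adjusted p = 0.607; unadjusted p under 0.05 for 518 genes above and 519 below). DESeq2 called 1 gene, Kcnt1, which encodes a sodium-activated potassium channel. Kcnt1 was at 35.8, 36.3 and 34.3 CPM in old and 29.1, 32.1 and 34.3 CPM in young conditioned libraries, which overlapped. In naive mice it was at 23.8, 29.8 and 27.8 CPM in old and 42.9, 37.7 and 44.0 CPM in young libraries, which did not. Its age difference was 0.16 (SE 0.10) in conditioned and -0.61 (SE 0.10) in naive mice (edgeR adjusted p of the difference = 0.607). Nup188, a nuclear pore protein, and Unc13b, which primes synaptic vesicles, were lower in old naive mice, by -0.51 and -0.48 (edgeR adjusted p = 0.0472 and 0.0308). In conditioned mice they differed by -0.10 and -0.27 and did not pass (edgeR adjusted p = 0.62 and 0.223).

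**Figure D2:**
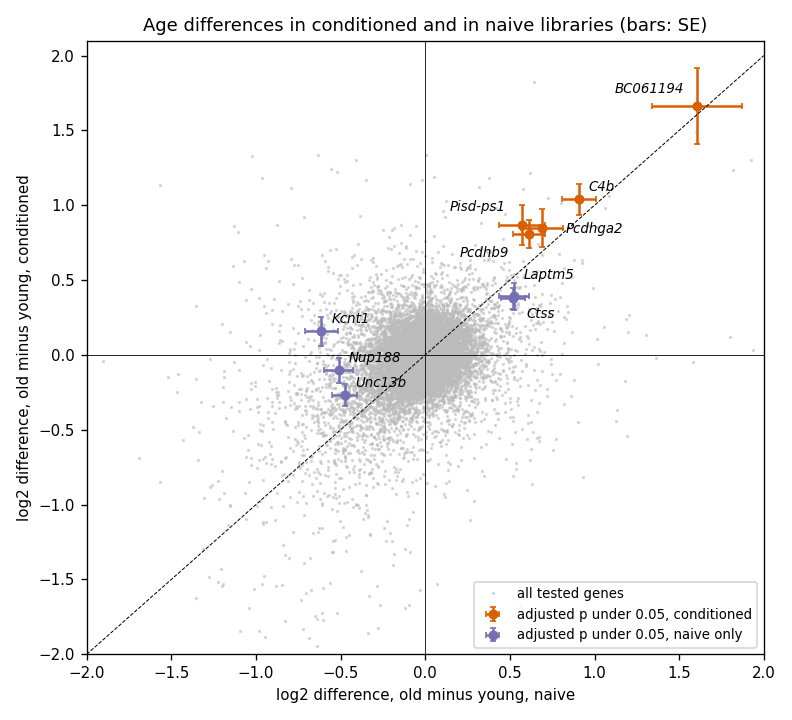
Log2 difference old minus young in conditioned mice (vertical) against that in naive mice (horizontal) for the tested genes, with standard errors for the genes that passed in either contrast and a dashed line of equality; 46 genes lie outside the drawn range. The 5 genes that rose in conditioned mice lie close to the line, and Kcnt1 lies in the quadrant of opposite signs (0.16 and -0.61).

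The genes nearest to the threshold did not pass and are given as values. Lag3, an inhibitory immune receptor of lymphocytes that microglia also transcribe, was at 5.75, 5.68 and 5.43 CPM in old and 2.87, 2.67 and 3.14 CPM in young mice (log2 0.96, edgeR adjusted p = 0.0555). Cbln1, a secreted synapse organizer, was at 6.81, 8.30 and 6.38 CPM in old and 2.41, 3.67 and 3.75 CPM in young mice (log2 1.14, adjusted p = 0.0667). Gsg1l, an auxiliary subunit of AMPA receptors, was at 42.4, 38.1 and 38.8 CPM in old and 27.3, 25.4 and 27.4 CPM in young mice (log2 0.57, adjusted p = 0.0984). In naive mice Lag3 differed by 0.10, Cbln1 by -0.09 and Gsg1l by -0.01. The difference between conditioned and naive mice did not pass for any of the 3 genes (adjusted p = 0.68 each). Cbln1 passed in 4 and Gsg1l in 3 of 19 alternatives.

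On the lower side, Cep162, a centriole protein of primary cilia, came nearest. It was at 12.7, 14.6 and 14.7 CPM in old and 20.2, 22.5 and 20.1 CPM in young mice (log2 -0.58, edgeR adjusted p = 0.0555). Cep290, a protein of the ciliary transition zone, was at 28.8 ± 4.06 and 40.9 ± 3.33 CPM (log2 -0.50, adjusted p = 0.195). Pbrm1, a subunit of the PBAF chromatin remodeller, was at 91.1, 98.1 and 94.8 CPM in old and 116, 114 and 116 CPM in young mice (log2 -0.28, adjusted p = 0.115). The bromodomain gene Brwd3 was at 21.1 ± 3.23 and 31.4 ± 3.67 CPM (log2 -0.57, adjusted p = 0.195), and Akap9, a centrosomal scaffold for protein kinase A, at 124 ± 8.45 and 151 ± 4.09 CPM (log2 -0.28, adjusted p = 0.195). All 5 genes were lower in every old library than in every young one, as were 11.8% of all tested genes. They were named for a small p in these same libraries, which favours such separation.

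Differences on this side moved with the genomic span of the genes. Tested genes were put in 5 groups of equal size by their RefSeq span, with median spans of 4.24 kb in the shortest group and 144 kb in the longest. The median age difference was 0.06 in the shortest and -0.06 in the longest group on the log2 scale, and the share of genes lower in every old library was 5.92% and 18.3%. The values of single libraries moved in the same order: library 61 deviated from the mean of the 6 libraries by 0.08 in the shortest and -0.05 in the longest group, and young library 77 by -0.05 and 0.05. Of 29 long neuronal transcripts listed, 27 were negative and 16 were lower in every old library, against 11.8% of all tested genes. The median of the list was -0.15 in conditioned and -0.08 in naive mice. Ank3, the ankyrin of the axon initial segment, was at 497 ± 13.8 CPM in old and 556 ± 19.3 CPM in young mice (edgeR adjusted p = 0.247). Whether the make-up of libraries 61 and 77 accounts for these differences was not tested.

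**Figure D3:**
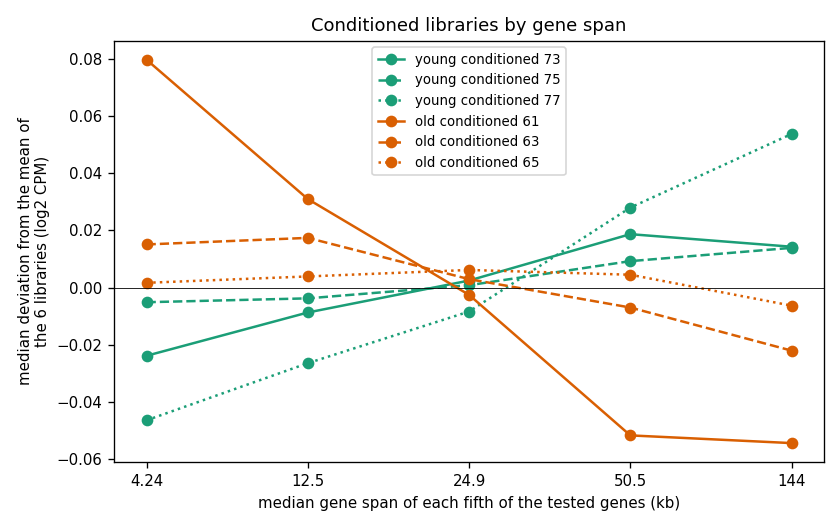
Median deviation of each conditioned library from the mean of the 6 (vertical, log2 CPM) over 5 groups of genes ordered by genomic span (horizontal, median span in kb). Old library 61 runs from 0.08 down to -0.05 and young library 77 from -0.05 up to 0.05, while the other 4 libraries stay between -0.024 and 0.019.

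Most microglial genes had a higher mean in old mice. Of 20 microglial markers tested, 19 had a positive difference, against 48.5% of all tested genes. In 12 of them every old library was above every young one, against 11.3% of all tested genes. Their median was 0.30 on the log2 scale, against -0.007 over all tested genes. The median in naive mice was 0.34, with 20 of 20 positive. None of the 20 passed the adjusted test in conditioned mice. The list score, the mean log2 CPM of its members, was 4.38, 4.32 and 4.19 in the old and 4.07, 4.01 and 3.98 in the young libraries. In bulk tissue, more or fewer cells of a type and more or less RNA per cell cannot be told apart.

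Ctss, a lysosomal cysteine protease of microglia, was at 49.5, 51.3 and 49.1 CPM in old and 37.5, 39.2 and 38.8 CPM in young mice (log2 0.38, edgeR adjusted p = 0.105). Laptm5 encodes a membrane protein of lysosomes in immune cells. It was at 34.5, 33.6 and 30.4 CPM in old and 25.2, 23.4 and 26.5 CPM in young mice (log2 0.39, adjusted p = 0.195). Both genes passed in naive mice, at 0.52 each (edgeR adjusted p = 0.0151 and 0.0499). Cx3cr1, the microglial receptor for fractalkine, was at 53.0 ± 2.31 and 41.8 ± 2.23 CPM, and C1qb, a C1q subunit, at 26.8 ± 1.48 and 19.3 ± 1.41 CPM (edgeR adjusted p = 0.195 and 0.203). All 4 genes were separated in conditioned mice, but they were the members of the list with the smallest p in these same libraries.

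Because these genes differed in the same direction, their promoters were read from RefSeq (build GRCm38.p6, positions counted from the transcription start, 5′ to 3′ on the gene's strand), where 13 of the 20 markers had an entry. Each promoter window, 250 bases before to 50 after the start, was searched on both strands for letters like the site of PU.1, the myeloid lineage factor (GAGGAAGT), and like the interferon-stimulated response element (ISRE). Ctss and Laptm5 are shown because they passed in naive mice, from 100 bases before to 10 after the start, with matches in capitals. They lie at chr3:95526686-95526795 and chr4:130913216-130913325, both on the plus strand.
Ctss: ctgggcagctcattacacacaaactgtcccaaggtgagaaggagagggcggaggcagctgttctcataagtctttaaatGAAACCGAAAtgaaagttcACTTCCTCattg
Laptm5: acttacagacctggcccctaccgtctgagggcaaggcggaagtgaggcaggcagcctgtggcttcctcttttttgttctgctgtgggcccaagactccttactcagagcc
The Ctss window held an ISRE-like match from position -21 and a PU.1-like match on the opposite strand from position -2, across the start, which do not overlap. The Laptm5 window held neither. Only exact matches were counted, so a site that differs in a single letter would be missed. PU.1-like letters were found in 2 of the 13 promoters and in 3.2% of 32851 RefSeq promoters, and ISRE-like letters in 2 of the 13 and in 3.44%. The motifs were chosen after the sequences were seen, and a match is a description of letters only.

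Complement genes outside C4b were led by the C1q subunits. Of 15 complement genes tested, 10 were positive, 6 were separated upwards and 1 downwards, against 11.3% and 11.8% of all tested genes. Their median was 0.21 (0.26 in naive mice), and C4b alone passed. C1qc was at 23.5 ± 2.92 CPM in old and 18.6 ± 1.22 CPM in young mice, and Itgam, the alpha chain of complement receptor CR3, at 24.4 ± 1.23 and 20.6 ± 0.96 CPM (edgeR adjusted p = 0.322 and 0.307). C1qb, C1qc and Itgam are also among the microglial markers above, so the counts of these lists overlap. Genes of reactive microglia and lysosomes had a median of 0.11, with 10 of 16 positive, 3 separated upwards and 1 downwards. Lyz2, lysozyme of phagocytes, was at 4.34 ± 0.03 and 2.61 ± 0.07 CPM, and Apoe, the main brain lipid carrier, at 729 ± 92.3 and 623 ± 42.1 CPM (edgeR adjusted p = 0.27 and 0.356). Cd9, a tetraspanin, was the member lower in every old library, at 23.4 ± 1.40 and 28.8 ± 4.81 CPM (log2 -0.30, SE 0.15).

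Interferon and antigen presentation genes did not share that direction. Of 24 interferon-response genes tested, 10 were positive, 0 were separated upwards and 1 downwards. Over all tested genes 11.3% were separated upwards and 11.8% downwards. The median of the interferon list was -0.03 (0.03 in naive mice). The antiviral gene Ifit3 was at 4.42, 5.16 and 4.48 CPM in old and 4.07, 4.58 and 2.73 CPM in young mice, which overlapped. Dhx58, which encodes an RNA helicase of antiviral sensing, was the separated member, at 0.70 ± 0.31 and 1.08 ± 0.07 CPM (log2 -0.62, edgeR adjusted p = 0.535). Parp14 had the smallest p of the list, at 2.59 ± 0.67 and 3.75 ± 0.50 CPM (log2 -0.53, adjusted p = 0.354). Of 14 genes of antigen presentation, 8 were positive, 0 were separated upwards and 1 downwards. Psmb9, a subunit of the immunoproteasome, was at 1.42, 0.70 and 0.95 CPM in old and 0.45, 0.75 and 0.30 CPM in young mice (edgeR adjusted p = 0.376).

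Astrocyte markers had a small median difference of 0.05, with 13 of 19 positive. Among the 19 markers 5 were separated upwards and 0 downwards, against 11.3% and 11.8% of all tested genes. Gfap, the intermediate filament of reactive astrocytes, was at 355, 297 and 315 CPM in old and 241, 260 and 274 CPM in young mice (log2 0.32, SE 0.11, edgeR adjusted p = 0.274). Aldoc, the astrocytic aldolase, was at 521 ± 36.9 and 440 ± 6.77 CPM (log2 0.25, adjusted p = 0.213). Both were separated. Among endothelial markers 15 of 18 were positive and 8 were separated upwards, against 11.3% of all tested genes. Their median was 0.21 (0.18 in naive mice). Eng, a co-receptor for TGF-beta ligands, was at 13.7 ± 0.77 and 9.68 ± 1.31 CPM, and Kdr, a receptor of vascular endothelial growth factor, at 15.4 ± 2.69 and 11.3 ± 0.76 CPM (edgeR adjusted p = 0.223 and 0.269). Of 21 myelin genes, 13 were negative and 3 were separated downwards, near the 11.8% of all tested genes. The median of the myelin genes was -0.10 (-0.22 in naive mice). Their median was 0.02 without young library 75 and 0.07 with the choroid plexus score as a covariate, each with 13 positive.

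Genes of dividing cells and newborn neurons had their largest differences on the lower side. Of 18 proliferation genes tested, 15 were negative, 7 were lower in every old library and 0 were higher in every old library. Over all tested genes 11.8% were lower and 11.3% higher in this way. The median of the list was -0.32 (-0.18 in naive mice). Top2a, a topoisomerase of dividing cells, was at 0.97, 0.61 and 0.78 CPM in old and 2.34, 2.17 and 2.43 CPM in young mice (log2 -1.54, SE 0.35, edgeR adjusted p = 0.195). Mki67, the proliferation marker Ki-67, was at 1.59, 1.14 and 1.03 CPM in old and 1.81, 2.58 and 2.43 CPM in young mice (log2 -0.85, adjusted p = 0.298). The list score was 2.28, 2.31 and 2.38 in old and 2.67, 2.75 and 2.76 in young libraries.

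In the list for neurogenesis and immature neurons, 9 of 26 genes were lower and 3 higher in every old library. Over all tested genes the shares were 11.8% and 11.3%. The median of the list was -0.09. Dcx, a microtubule protein of migrating neuroblasts, was at 21.2, 20.7 and 23.9 CPM in old and 27.6, 33.8 and 39.2 CPM in young mice (log2 -0.60, SE 0.14, edgeR adjusted p = 0.195). Its difference in naive mice was -0.58. Igfbpl1 was at 0.09, 0.44 and 0.43 CPM in old and 1.81, 2.83 and 1.22 CPM in young mice (log2 -2.59, adjusted p = 0.223). Sox11, a transcription factor of immature neurons, was at 35.9 ± 1.95 and 49.3 ± 6.43 CPM. Tubb3, a tubulin that mature neurons keep, had the other sign, at 174 ± 13.7 CPM in old and 150.1 ± 4.30 CPM in young mice (log2 0.22, adjusted p = 0.244).

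Most collagen genes had a lower mean in old mice. Of 25 collagen genes, 23 were negative, 8 were lower in every old library and 0 higher in every old library. Over all tested genes 11.8% were lower and 11.3% higher in this way. The collagen median was -0.31 (-0.48 in naive mice). Col3a1, a fibrillar collagen of meninges and vessel walls, was at 0.62, 0.52 and 1.29 CPM in old and 1.89, 2.08 and 2.73 CPM in young mice (log2 -1.43, edgeR adjusted p = 0.213). Col1a2 was at 5.33 ± 0.74 and 9.30 ± 0.76 CPM, and Col5a2 at 3.14 ± 0.45 and 5.74 ± 1.10 CPM (adjusted p = 0.223 and 0.202). Tnc, the matrix glycoprotein tenascin-C, was at 6.63, 4.54 and 6.46 CPM in old and 10.2, 10.5 and 10.9 CPM in young mice (log2 -0.84, SE 0.19, edgeR adjusted p = 0.195), and differed by -0.96 in naive mice. Hapln4, a link protein of perineuronal nets, had the other sign, at 121 ± 2.88 and 104 ± 5.44 CPM.

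Choroid plexus genes had the largest differences in sign and size, with 16 of 16 negative and a median of -2.76 (-0.62 in naive mice). All 16 had an unadjusted p under 0.05, and none passed the adjusted test. Ttr, the thyroid hormone carrier secreted by that epithelium, was at 42.6, 29.3 and 117 CPM in old and 524, 1961 and 24.2 CPM in young mice. Young library 77 was thus below every old library, and the 2 high values were those of young libraries 73 and 75. With the choroid plexus score as a covariate the Ttr difference was 0.10. Ttr is a member of the list behind that score, so a small value follows from the way the score is made. Igf2, which the choroid plexus and meninges secrete, was at 23.4, 18.7 and 23.4 CPM in old and 43.7, 115 and 29.4 CPM in young mice. With 1 conditioned library left out the list median ranged from -3.26 to -1.40, the latter without young library 75, and without old library 61 and young library 75 together it was -1.27.

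Those scores were set beside the groups above. With the choroid plexus score as a covariate, the medians were 0.31 for microglia, -0.29 for collagens, -0.23 for proliferation and 0.20 for endothelial genes, and 3 of the 5 genes that rose kept their call (C4b, Pcdhb9 and Pcdhga2). With 1 library left out, or old library 61 and young library 75 together, the medians stayed within 0.22 and 0.38 for microglia, -0.43 and -0.23 for collagens, -0.36 and -0.23 for proliferation and 0.14 and 0.28 for endothelial genes.

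**Figure D4:**
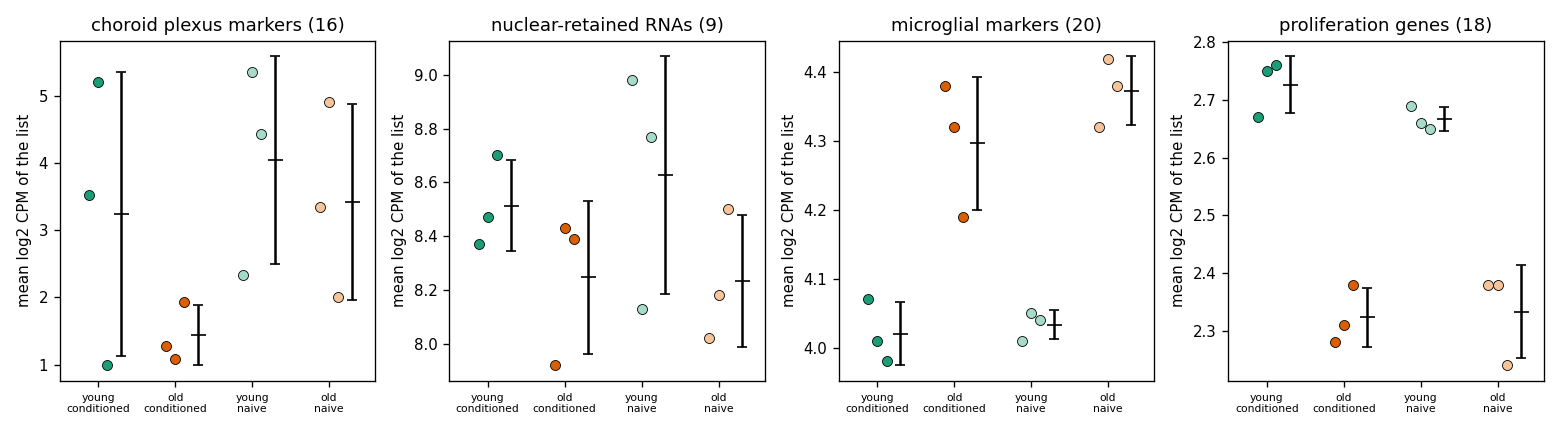
Mean log2 CPM of 4 gene lists in each of the 12 RNA libraries, with the mean and SD of each group of 3. Conditioned groups overlap for choroid plexus markers (0.998 to 5.20 in young and 1.09 to 1.94 in old) and for nuclear-retained RNAs, and they do not overlap for microglial and proliferation genes.

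Immediate early genes showed no age difference past the test 30 min after training. Of 34 tested, 22 were positive, 1 was separated upwards and 2 downwards. These shares are below the 11.3% and 11.8% of all tested genes. The median of the early genes was 0.05 (0.04 in naive mice). Without old library 61 the median was -0.03 (15 positive), and with the choroid plexus score as a covariate it was -0.04 (12 positive). Their list score was 4.88, 4.80 and 4.64 in old and 4.84, 4.64 and 4.78 in young conditioned libraries, each above the 3.86 to 4.44 of the 6 naive libraries. Fos was at 18.4, 20.9 and 15.7 CPM in old and 20.7, 14.7 and 24.6 CPM in young mice (log2 -0.12, SE 0.31, edgeR adjusted p = 0.891). Arc, which regulates AMPA receptor traffic, was at 178, 176 and 135 CPM in old and 165, 137 and 160.2 CPM in young mice (log2 0.08, SE 0.25, adjusted p = 0.911). Egr1, a zinc finger factor, was at 157 ± 38.3 and 154 ± 16.4 CPM (log2 0.03, SE 0.21, adjusted p = 0.964). Fosb differed by 0.08 (SE 0.13), Dusp1, a MAP kinase phosphatase, by 0.04 (SE 0.13), and Npas4, an activity-dependent factor, by -0.29 (SE 0.26). In each of these genes the 2 ages overlapped, which does not show that their levels were alike. The members with the smallest p were Tiparp, at 24.3 ± 0.56 and 29.8 ± 0.73 CPM, and Jund, at 106 ± 14.2 and 87.2 ± 1.89 CPM (adjusted p = 0.239 and 0.298).

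Synaptic genes differed by small amounts, most of them upwards. Of 26 genes of presynaptic vesicles, 22 were positive, 9 were separated upwards and 3 downwards, against 11.3% and 11.8% of all tested genes. Their median was 0.12 (0.03 in naive mice). Cplx1, which clamps and promotes vesicle fusion, was at 487, 444 and 425 CPM in old and 401, 395 and 382 CPM in young mice (log2 0.20, SE 0.06, edgeR adjusted p = 0.223). Slc17a7, the vesicular glutamate transporter VGLUT1, was at 1451 ± 85.2 and 1258 ± 80.1 CPM. Unc13b was at 44.8, 50.3 and 51.6 CPM in old and 56.6, 58.4 and 61.9 CPM in young mice. Among postsynaptic scaffolds 16 of 23 were positive, with Shank3 at 380.3 ± 45.4 and 316 ± 12.7 CPM (log2 0.27, adjusted p = 0.223).

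Glutamate receptor genes showed no shared direction, while the separated potassium channel genes were mostly higher in old mice. Of 24 glutamate receptor genes, 12 were positive. Grm2, a presynaptic metabotropic receptor, was at 58.8 ± 2.33 CPM in old and 46.2 ± 2.84 CPM in young mice (edgeR adjusted p = 0.236). Gria2, the AMPA receptor subunit that limits calcium entry, was at 1120 ± 67.0 and 1292 ± 44.6 CPM (adjusted p = 0.335). Of 40 potassium channel genes, 24 were positive, 10 were separated upwards and 2 downwards, against 11.3% and 11.8% of all tested genes. Kcnc4 was at 72.6 ± 10.2 CPM in old and 57.9 ± 2.45 CPM in young mice. Ryr3, a calcium release channel, was at 170.0 ± 16.04 and 218 ± 27.5 CPM (adjusted p = 0.239).

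**Figure D5:**
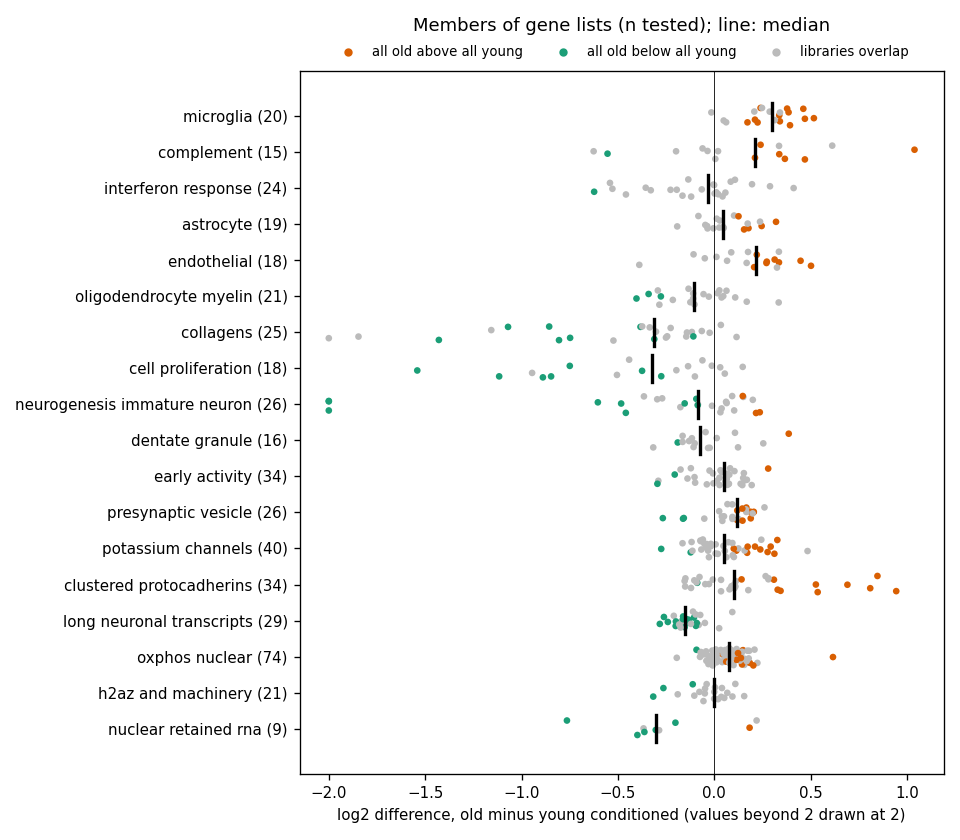
Log2 difference old minus young in conditioned mice (horizontal, values beyond 2 drawn at 2) for each member of 18 gene lists, with a line at the median and colour for members whose groups do not overlap. Microglial genes lie mostly right of 0 (median 0.30), collagens (-0.31) and proliferation genes (-0.32) mostly left, and early activity genes around 0 (0.05).

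Energy and protein synthesis genes differed little. Of 74 nuclear genes of oxidative phosphorylation, 56 were positive, 10 were separated upwards and 1 downwards (median 0.07; 0.11 in naive mice), with Ndufa10, a complex I subunit, at 102 ± 3.36 and 92.7 ± 2.05 CPM (edgeR adjusted p = 0.326). Of 74 cytosolic ribosomal protein genes, 56 were positive, 6 were separated upwards and 1 downwards (median 0.08; 0.12 in naive mice). Over all tested genes 48.5% were positive and 11.3% were separated upwards, so the separated members were near or below that background. These lists moved with library 61: without it their medians were 0.03 and 0.01. The 4 Y-linked genes were negative (median -0.39; -0.13 in naive mice), and Kdm5d, a histone demethylase, was at 19.7, 30.3 and 31.8 CPM in old and 36.7, 35.1 and 39.7 CPM in young mice. Library 61 was lowest in this gene and in the nuclear-retained RNAs, and whether the 2 are linked was not tested.

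H2A.Z, the histone variant whose binding the study mapped, showed no RNA difference past the test. H2afz was at 83.3, 74.6 and 76.5 CPM in old and 82.6, 81.2 and 79.9 CPM in young mice (log2 -0.06, SE 0.06, edgeR adjusted p = 0.729), and H2afv, which encodes the second H2A.Z protein, differed by 0.04 (SE 0.12). Of 21 genes of H2A.Z and the complexes that load or remove it, 10 were positive and 3 were separated downwards. That share is near the 11.8% of all tested genes separated downwards. The median was 0.00, from -0.04 to 0.01 with 1 library, or libraries 61 and 75 together, left out. Mbtd1, a subunit of the TIP60 complex, was at 35.9 ± 4.91 and 44.8 ± 4.96 CPM, and Actr6, a subunit of the SRCAP complex, at 16.1 ± 0.98 and 19.3 ± 1.88 CPM (adjusted p = 0.269 and 0.331). Of 46 other chromatin regulators, 10 were separated downwards and 3 upwards, against 11.8% and 11.3% of all tested genes. Kmt2c, a histone H3 methyltransferase, was at 220.1 ± 12.01 and 256 ± 24.2 CPM, and Hdac5, a histone deacetylase, at 168 ± 16.2 and 142 ± 1.64 CPM (adjusted p = 0.266 and 0.272).

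The authors' deposited table of H2A.Z peaks gave the same age contrast in chromatin of conditioned mice. There, by the authors' deposited table, none of the 20213 peaks had a false discovery rate under 0.05, the smallest p was 0.0034, and 0.554% of peaks had a p under 0.05. Of the tested genes, 10817 had a peak within 1 kb of their start. The median log2 fold of these promoters, old minus young in the authors' deposited table, was 0.14 for the 1325 genes higher in every old RNA library, 0.10 for the 1265 lower in every old library and 0.10 for the 8227 whose libraries overlapped. Across these genes, Spearman's rho between the RNA difference and the H2A.Z fold was 0.07, a description over genes, which are not independent.

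BC061194, the gene among the 5 with a promoter peak (chr2:18698564-18699326, mm10), had a fold of -0.11 in the authors' deposited table (p = 0.888). Cep162 (chr9:87255004-87255758, mm10) had a fold of 0.80 in the authors' deposited table (p = 0.432). Pbrm1 and Srebf2 had folds of 0.53 and 0.27 in the authors' deposited table (p = 0.313 and 0.53). Cbln1 and Gsg1l had folds of 0.06 and -0.08 in the authors' deposited table (p = 0.899 and 0.876). In the authors' deposited table the folds and the differences of mean levels were offset by a constant 0.118, so the sign of small folds depends on the scale used.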

How the data were processed

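RNA was measured in 12 libraries, 3 per group. The values deposited by the authors are unnormalized counts of reads for each gene symbol. Per the submitters' processing notes the tools included TopHat, Bowtie2 2.2.1, HTSeq 0.6.1p2, MACS2 2.0.10 and DiffBind 1.12.2, with builds mm9 and mm10; for RNA, the sources used here do not give the build, annotation or strand setting. The H2A.Z values were deposited as 1 list of consensus peaks, with log2 folds between groups, log2 mean levels, distances to genes and p-values of their own. Conditioned groups are written T there, read by exclusion of N for naive. The table was described without a test.

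Counts were fitted in R 4.3.3 with edgeR 4.0.16 (TMM factors, filterByExpr, 1 quasi-likelihood fit of 4 groups), with Benjamini-Hochberg adjustment over 14405 genes at 0.05. CPM use TMM factors, and list scores a prior count of 2. The method was checked on simulated counts with 99 genes changed by 0.5 and 97 by 1 on the log2 scale. It recovered 37.4% and 84.5% of them, and called 6 unchanged genes. The simulated counts varied independently between genes, with the spread that the fit had estimated. Shifts common to many genes, as in choroid plexus markers, were left out, so these percentages may not hold for the real libraries. Alternatives used DESeq2 1.42.0, limma 3.58.1, other factors and filters, left-out libraries and list scores as covariates. Figures were drawn with matplotlib 3.10.9.

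Members and gene lists were chosen with earlier results of these data known. Per direction the rule named up to 20 called genes whose libraries were separated and whose mean log2 CPM reached 1, or, under 10 such genes, those with the smallest p up to 10. It added up to 4 per list with the smallest p, and Gfap, Dcx, Fos, Fosb, Arc, Egr1, Dusp1, Npas4, H2afz, H2afv, Ttr, Kcnt1, Nup188 and others. C4a, Pisd, Pisd-ps2, Prox1, Neurod6, Sox11, the cholesterol and glycolysis genes and the peaks shown were chosen after their values were seen. Mitochondrially encoded genes were not analysed here.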

Additional observations from a re-analysis of the deposited data

How the results depend on the processing

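No paired analysis was possible because no number in the RNA titles occurs in more than 1 library. The count of genes higher in old conditioned mice, 5, was 69 with DESeq2, which gave 4 of the 5 no adjusted p, and 33 when DESeq2 adjusted every tested gene; the count of lower genes, 0, was 37 and 20. Leaving out each conditioned library gave 2 to 3 higher and 0 to 1 lower genes, with C4b and Pcdhb9 called each time and D7Ertd715e lower without old library 65. With the choroid plexus score as a covariate 3 genes were higher. With the nuclear RNA score as a covariate 2 genes, Lepr and Tnc, were lower. Without old library 61 and young library 75 together, added after the data were seen, 1 gene was higher, C4b. In naive mice DESeq2 gave 16 higher and 18 lower genes (15 and 18 when every gene was adjusted), against 5 and 3. For the difference between the contrasts DESeq2 gave 1 gene in both forms, against 0. The cause of these changes was not tested. Differences changed sign for Ttr with the choroid plexus covariate (0.102), for Npas4 with the nuclear RNA covariate (0.00996) and for Sntn without libraries 61 and 75 (0.288). The choroid plexus covariate was made from markers that include Ttr. Of 4666 values of named genes and list medians under other settings, 89 had the other sign, none of a called gene. Other factors, filters and limma-voom gave 5 to 7 higher and 0 lower genes. With 3 libraries a side, a difference of -0.60 with a standard error of 0.14 (Dcx) did not pass.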

Other observations

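Cholesterol synthesis and glycolysis genes were grouped after their values were seen, so the counts are descriptions. Of 23 cholesterol genes, 20 had a positive difference in conditioned mice and 6 were higher in every old library than in every young one, against 11.3% of all tested genes (median log2 0.10; 0.08 in naive mice). Srebf2, the master transcription factor of sterol synthesis, was at 268, 250.1 and 249.4 CPM in old and 197, 207 and 207 CPM in young mice (log2 0.33, SE 0.06, edgeR adjusted p = 0.104), and 0.06 in naive mice. Fdps, an enzyme of the isoprenoid steps, was at 45.2 ± 1.32 and 36.8 ± 1.30 CPM.

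Of 16 glycolysis genes, 16 were positive and 10 were higher in every old library, against 11.3% of all tested genes. Their median was 0.13 (0.06 in naive mice). Gapdh was at 1270.0 ± 66.5 CPM in old and 1054 ± 44.4 CPM in young mice (log2 0.27, edgeR adjusted p = 0.195), and Aldoa at 1411 ± 60.4 and 1218 ± 52.2 CPM. Pgk1 was at 400 ± 7.27 and 395 ± 18.4 CPM. Genes with short spans had a median difference of 0.06 in these libraries, and the part of gene span in the glycolysis values was not tested.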
